A study of Mus musculus with 12 samples.

Results

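Fatty acid oxidation was described here through 37 genes of the mitochondrial and peroxisomal pathways and of ether lipid synthesis, measured in mouse renal cortex with and without acute kidney injury. The genes were chosen by name, from their known roles and with earlier results of these data known. Each was read from the probe set that carried its symbol alone, taking the probe set of highest average level where a gene had several. Of the 37 genes, 36 were measured among the 19938 genes of the arrays, and Acsl1, a fatty acyl-CoA synthetase, was not analysed here because it had no such probe set. The measured genes were 4 of delivery to the mitochondrial matrix, 11 of the mitochondrial spiral, 3 of electron transfer, 4 whose enzymes are found in both organelles, 11 of peroxisomal oxidation and 3 of ether lipid synthesis. In counts by organelle, the first 3 of these classes formed the mitochondrial arm (18 genes), and the last pair formed the peroxisomal and ether lipid arm (14 genes).

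The 12 arrays fell into 4 groups of 3. Control mice were nr3c1 flox/flox, that is, with floxed alleles of the gene of the glucocorticoid receptor (GR), and GR-deficient mice were Pax8-Cre;nr3c1 flox/flox. Both genotypes therefore carried the floxed alleles, and because no group carried Pax8-Cre alone, a difference between genotypes includes any effect of the recombinase. Pax8-Cre acts in the tubular epithelium of the kidney and leaves GR in other cells of the cortex. Injured mice received glycerol in the muscle, which breaks down muscle and floods the kidney with myoglobin (AKI), and their cortices were taken after 24 hours. Healthy mice of either genotype were a separate cohort that was not injected, so a difference after AKI includes the injection and any difference between cohorts. The sources used here give no age, sex or strain background. Replicates are numbered in the labels, which do not say whether they came from different animals, and the p-values therefore cover the spread among these samples alone, whether technical or biological.

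Proximal tubule cells of the renal cortex live largely on fatty acids and hold many mitochondria and peroxisomes. Long-chain fatty acids are activated to acyl-CoA, pass into the mitochondrial matrix as carnitine esters and are shortened there by repeated rounds of dehydrogenation, hydration, a further dehydrogenation and thiolysis, the so-called spiral, whose first dehydrogenases pass electrons to the electron transfer flavoprotein (ETF). Peroxisomes shorten very long and branched chains and bile acid precursors, send the shortened products on as carnitine esters, and carry out the opening steps of ether lipid (plasmalogen) synthesis. Many of these genes are known targets of PPARA, the fatty acid sensing nuclear receptor, and of its partner PPARGC1A. GR is a steroid-activated transcription factor that is also known to act on genes of lipid use.

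All values are deposited log2 expression values, listed for replicates 1, 2 and 3 in that order, and a difference of 1 is a 2-fold change. Differences are given with their standard error (SE) from limma, n is 3 arrays in each group, and p comes from limma's moderated test with Benjamini-Hochberg adjustment across all 19938 genes, with 0.05 as the threshold. Nr3c1 itself read 9.65, 9.48 and 9.52 in healthy control mice and 8.18, 8.13 and 8.21 in healthy GR-deficient mice, a difference of -1.38 (SE 0.10, adjusted p = 1.73e-05), and after AKI it differed by -0.88 (SE 0.10, adjusted p = 2.69e-05). The labelled tissue matched its markers: 19 of 20 proximal tubule genes were measured, with a mean level of 12.43 to 12.55 per healthy control array, against 6.45 to 6.64 for 10 genes of skeletal and heart muscle and 6.43 to 7.66 for 8 genes of fat cells, of which 1, Pck1, is also a gluconeogenic enzyme of the proximal tubule and averaged 12.79. Array medians lay between 7.001 and 7.092. One array stood apart in each of 2 groups, replicate 1 of the injured control mice and replicate 1 of the healthy GR-deficient mice. The former was the lowest of its group for 33 of the 36 genes, against 36.5% of all genes, and replicate 3 of that group was the highest for 31, against 31.1% of all genes. Replicate 1 of the injured control mice was the highest for 0 of the 36, against 47.7% of all genes. Its SD over genes was 1.88, against 1.96 to 2.06 on the other arrays. All 36 genes averaged at or above the median of all genes, and the part of this narrower range in their values was not tested. The number of arrays limits the precision throughout.

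In control mice AKI lowered most of the pathway in both organelles. Of the 36 genes, 26 fell and 0 rose (limma), against 15.1% of all genes lower and 13.6% higher (28.7% in either direction). At an unadjusted p under 0.05 in limma, 27 fell and 1 rose, against 3720 lower and 3438 higher among all 19938 genes. The median difference was -0.77, a 1.71-fold lower level, against 0.00 over all genes. The falls ran from -0.33 for Acadvl to -2.08 for Fabp3, and 10 of the genes that fell did so by at least 2-fold. In 25 genes every injured array lay below every healthy array and in 0 above, against 20.4% and 19.3% of all genes. Without both arrays that stood apart, 25 genes fell and 1, Cpt2, rose. In bulk cortex, fewer cells of a type and less RNA per cell cannot be told apart.

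**Figure D1:**
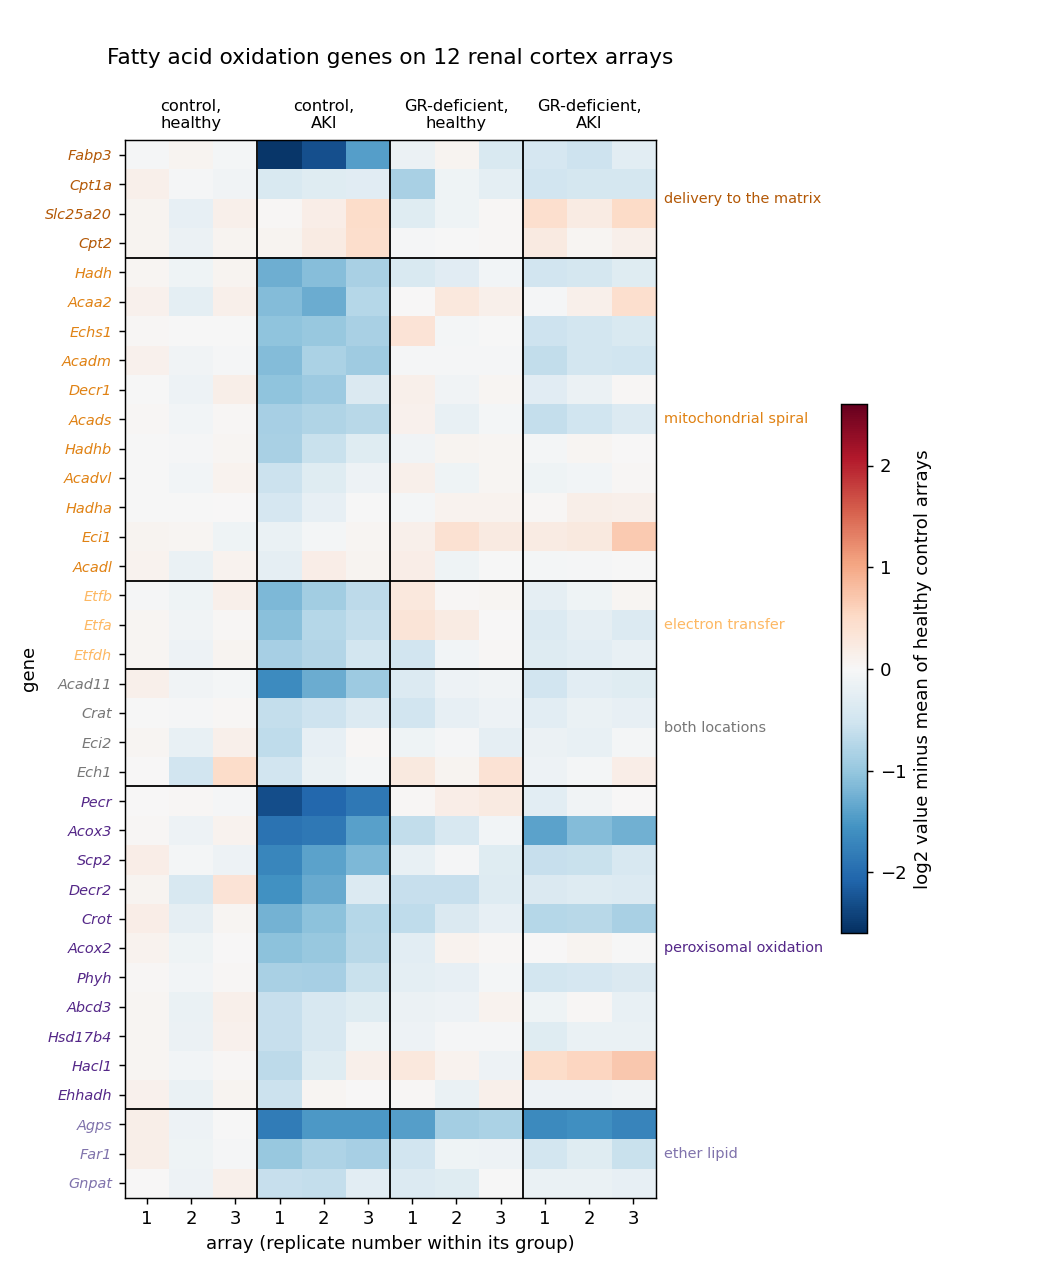
Each of the 36 genes (vertical axis, grouped by class) on each of the 12 arrays (horizontal axis, grouped into the 4 groups), coloured by its log2 value minus its mean in healthy control mice. For most genes the injured control arrays are the lowest, with a median over the genes of -0.86 to -0.42 per array, against -0.28 to -0.18 on the injured GR-deficient arrays.

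In GR-deficient mice glycerol AKI lowered 6 of the 36 genes and raised 0 (limma), against 1.35% of all genes lower and 3.29% higher (4.64% in either direction). At an unadjusted p under 0.05 in limma, 9 fell and 2 rose, against 1527 lower and 2135 higher among all 19938 genes. The median difference was -0.13, against -0.03 over all genes. The 6 were Acadm, Acads, Echs1, Etfa, Acox3 and Agps. They were 23.1% of the genes that fell in control mice, and all 6 had also fallen there, so they are 100% of the GR-deficient list. Of the 36 genes, 11 had their injured arrays all below the healthy ones and 3 all above, against 12.5% and 12.8% of all genes. The calls depended on single arrays: 1 gene, Acox3, passed without replicate 1 of the injured GR-deficient mice, and 3 passed without replicate 2 of that group or without replicate 3 of the healthy control mice. Acox3 alone was called in every setting that was run.

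In healthy mice GR deficiency came with 1 changed gene, Agps, which was lower, and with 0 higher genes (limma), against 0.110% of all genes lower and 0.0351% higher (0.145% in either direction). At an unadjusted p under 0.05 in limma, 5 were lower and 0 higher, against 1319 lower and 805 higher among all 19938 genes. The median difference of the 36 genes was -0.06. The arrays of the genotypes did not overlap for 3 genes that were lower and 2 that were higher, against 10.6% and 8.08% of all genes. After AKI the genotypes differed widely: 18 genes were higher in GR-deficient mice and 0 lower (limma), against 10.0% of all genes higher and 7.34% lower (17.4% in either direction). At an unadjusted p under 0.05 in limma, 26 were higher and 0 lower, against 3029 higher and 2566 lower among all 19938 genes. The median difference was 0.42, against -0.04 over all genes. In 25 genes every injured GR-deficient array lay above every injured control array, and in 1, Cpt1a, below, against 17.5% and 15.3% of all genes. The count of 18 was 13 to 24 when single arrays were left out and 16 without both arrays that stood apart.

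The test of the difference between both AKI responses, the interaction of genotype and AKI, was positive for 16 genes and negative for 0 (limma), against 7.39% of all genes positive and 4.06% negative (11.5% in either direction). At an unadjusted p under 0.05 in limma, it was positive for 24 and negative for 0, against 2763 positive and 1977 negative among all 19938 genes. A positive value means that the level fell less, or rose more, in GR-deficient mice. Its median was 0.55, against -0.03 over all genes. The count dropped to 8 without replicate 1 of the healthy control mice or replicate 2 of the injured GR-deficient mice, and to 9 without replicate 3 of the healthy control mice, replicate 2 of the injured control mice or replicate 3 of the injured GR-deficient mice. It was 11 without both arrays that stood apart. Since the interaction and the genotype difference after AKI use the same injured control arrays as the AKI response of control mice, their values are set side by side below and are not independent of one another.

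**Figure D2:**
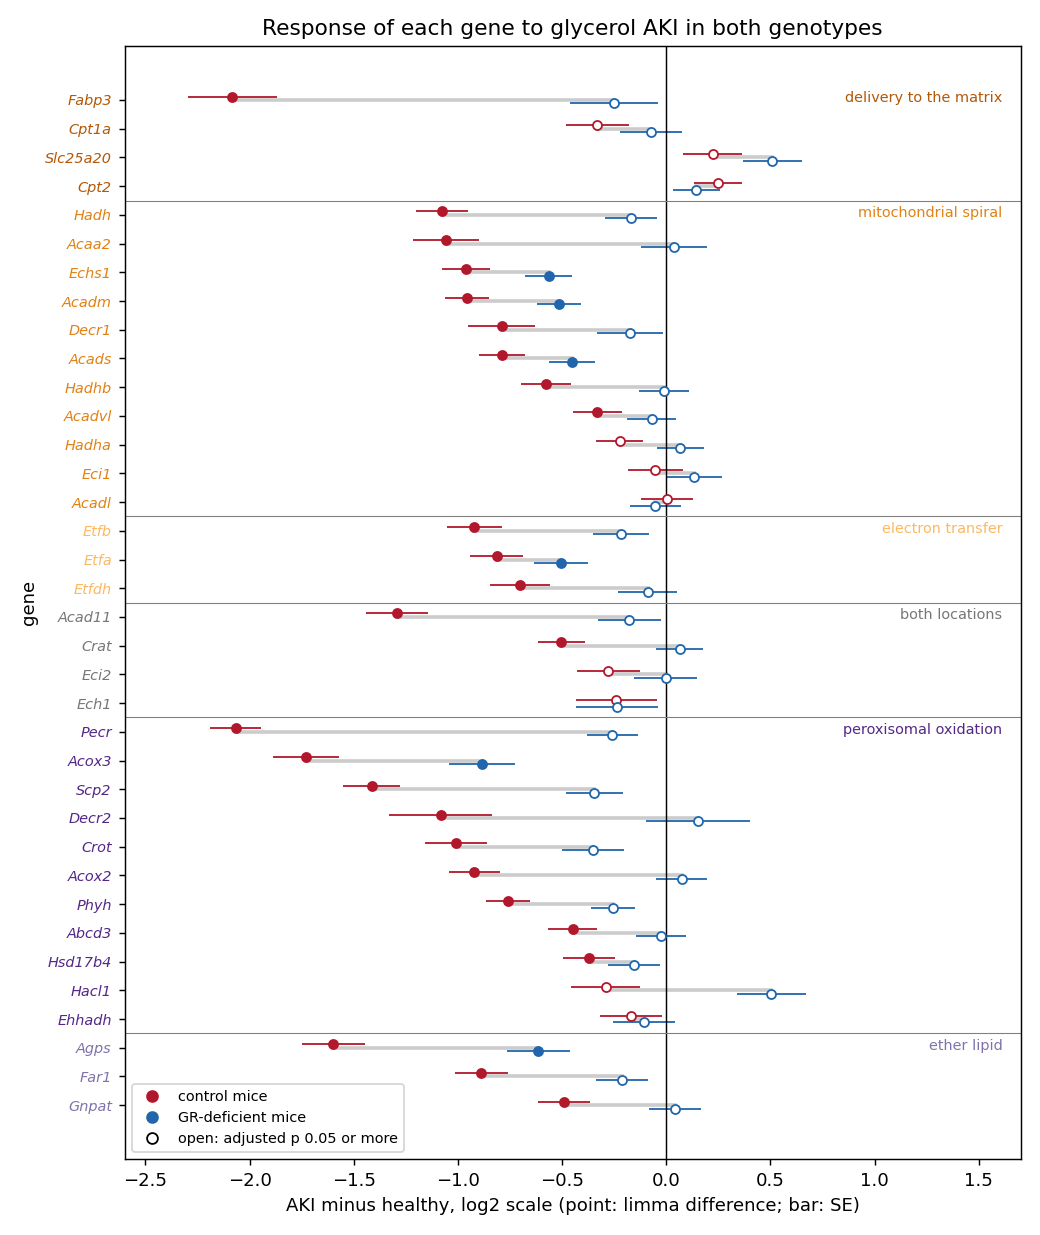
The AKI minus healthy difference (horizontal axis, log2 scale, point with SE bar) of each gene (vertical axis, by class) in control mice (red) and GR-deficient mice (blue), filled where the adjusted p was under 0.05. In control mice 26 points are filled and all lie left of 0, and in GR-deficient mice 6 are filled, also left of 0.

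Delivery to the mitochondria was split between a binding protein that fell steeply and a carnitine shuttle whose genes did not pass the test with all 12 arrays. Fabp3, the heart-type cytosolic fatty acid binding protein, read 10.85, 10.94 and 10.82 in healthy control mice and 8.34, 8.58 and 9.44 after AKI. The injured arrays lay far below the healthy ones, with a wide spread among themselves. The fall was -2.08 (SE 0.21, 4.24-fold, adjusted p = 3.44e-06), and the second probe set of the gene gave -1.96. In GR-deficient mice Fabp3 read 10.71, 10.94 and 10.47 before injury and 10.43, 10.33 and 10.60 after it. These groups overlapped, and the difference of -0.25 (SE 0.21, adjusted p = 0.583) did not pass. All 3 injured GR-deficient arrays lay above all 3 injured control arrays, by 1.67 on average (SE 0.21, adjusted p = 8.32e-05), and the interaction was 1.83 (SE 0.30, adjusted p = 0.00131).

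Cpt1a, the outer membrane carnitine palmitoyltransferase that controls entry of long-chain fatty acids, read 11.84, 11.66 and 11.60 in healthy control mice and 11.31, 11.38 and 11.42 after AKI. In GR-deficient mice it read 10.86, 11.59 and 11.44, and 11.20, 11.24 and 11.23 after AKI. Healthy control arrays were the highest of all, and the healthy GR-deficient arrays were spread by one low array, replicate 1, which is the array of that group that stood apart. None of its differences passed: -0.33 for AKI in control mice (adjusted p = 0.128), -0.07 for AKI in GR-deficient mice (adjusted p = 0.849), -0.40 for GR deficiency in healthy mice (adjusted p = 0.356) and -0.15 for GR deficiency in AKI (adjusted p = 0.593). Without that healthy GR-deficient array the fall of Cpt1a in control mice kept its size of -0.33 and passed (adjusted p = 0.0155). Cpt2, the inner membrane transferase, read 10.74, 10.52 and 10.73 in healthy control mice and 10.73, 10.87 and 11.12 after AKI, so the groups overlapped, with a difference of 0.25 (95% interval 0.00 to 0.49, adjusted p = 0.134). Slc25a20, the carnitine-acylcarnitine translocase between them, differed by 0.22 in control mice (95% interval -0.08 to 0.52, adjusted p = 0.303) and by 0.51 in GR-deficient mice (95% interval 0.21 to 0.81, adjusted p = 0.0541). The latter difference passed in 3 of the 12 fits that left out 1 array, those without replicate 1 (adjusted p = 0.0303) or replicate 3 (adjusted p = 0.0355) of the injured control mice or replicate 3 of the healthy GR-deficient mice (adjusted p = 0.0479), and in 5 of 8 other alternatives. Neither interval reached a 2-fold fall for Cpt2 or Slc25a20 in either genotype.

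To show what lies just upstream of the genes described most fully, the 250 bases before the start of 4 of them are printed here. They come from RefSeq (mouse build GRCm38.p6), each 5′ to 3′ on the strand of its gene. Acadm was the only gene with the ERR motif among the windows found for genes of the pathway. Pecr and Fabp3 had the largest falls, and Agps was lower in healthy GR-deficient mice. Capitals mark matches, on either strand, to AGGTCA or AAGGTCA in Acadm and to the GC box GGGCGG in the others.
Acadm (chr3:153944644-153944893, minus strand): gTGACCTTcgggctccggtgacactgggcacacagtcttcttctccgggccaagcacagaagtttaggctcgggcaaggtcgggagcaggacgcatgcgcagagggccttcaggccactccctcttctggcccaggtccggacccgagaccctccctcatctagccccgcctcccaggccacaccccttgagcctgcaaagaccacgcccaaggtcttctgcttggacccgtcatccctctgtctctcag
Pecr (chr1:72284322-72284571, minus strand): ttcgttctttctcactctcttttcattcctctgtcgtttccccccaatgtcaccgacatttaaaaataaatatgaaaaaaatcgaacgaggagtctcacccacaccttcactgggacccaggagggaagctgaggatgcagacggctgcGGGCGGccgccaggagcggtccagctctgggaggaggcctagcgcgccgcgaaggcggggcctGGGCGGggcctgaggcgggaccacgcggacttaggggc
Fabp3 (chr4:130308488-130308737, plus strand): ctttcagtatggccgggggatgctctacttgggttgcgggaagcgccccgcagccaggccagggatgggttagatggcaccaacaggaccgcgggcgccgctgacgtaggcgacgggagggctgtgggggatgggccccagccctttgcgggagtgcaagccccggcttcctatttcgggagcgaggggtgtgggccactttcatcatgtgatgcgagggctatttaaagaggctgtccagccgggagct
Agps (chr2:75831927-75832176, plus strand): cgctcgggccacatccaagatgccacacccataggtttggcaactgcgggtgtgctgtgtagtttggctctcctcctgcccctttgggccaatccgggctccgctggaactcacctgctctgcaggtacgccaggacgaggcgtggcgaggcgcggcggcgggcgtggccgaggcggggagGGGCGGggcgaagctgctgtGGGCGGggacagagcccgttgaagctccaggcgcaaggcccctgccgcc

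Such a window was found for 33 of the 37 genes and for 17492 protein-coding genes in all, and each motif was searched on both strands. The PPAR response element written as AGGTCANAGGTCA was in 0 of the 33 windows and in 0.0515% of all windows, and with 1 mismatch allowed it was in 0 and 0.503%. AGGTCA, the core motif of many nuclear receptors, was in 5 windows (15.2%, against 14.6% of all), those of Acadm, Acadvl, Cpt1a, Echs1 and Scp2. AAGGTCA, the motif of the estrogen-related receptors (ERR), which contains AGGTCA, was in the Acadm window alone (3.03%, against 4.18% of all). The glucocorticoid response element written as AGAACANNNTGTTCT was in 0 of the 33 and in 0.0114% of all windows, and its single arm AGAACA was in 2, those of Hadh and Phyh (6.06%, against 15.8% of all). The GC box was in 24 (72.7%, against 45.8% of all), including Pecr and Agps, which hold 2 copies each, and not Fabp3, which held none of the motifs. A match describes these letters in these windows only.

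Within the mitochondrial spiral 8 of 11 genes fell in control mice with AKI, with a median of -0.79 over the 11. The acyl-CoA dehydrogenases, which start each round and divide the work by chain length, changed unequally. Acadm, for medium chains, read 13.04, 12.85 and 12.90 in healthy control mice and 11.81, 12.11 and 12.0004 after AKI. Its values were 12.90, 12.91 and 12.89 in the healthy GR-deficient group and 12.29, 12.45 and 12.42 in the injured one. The healthy groups overlapped, the injured GR-deficient arrays lay in between, and the injured control arrays were the lowest. The fall was -0.96 in control mice (SE 0.10, adjusted p = 6.59e-06) and -0.52 in GR-deficient mice (SE 0.10, adjusted p = 0.0121). The latter did not pass without replicate 1 of the injured GR-deficient mice (-0.47, adjusted p = 0.0856), and the interaction of 0.44 did not pass (adjusted p = 0.0720).

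Acads, for short chains, fell by 0.79 in control mice (adjusted p = 6.36e-05) and by 0.45 in GR-deficient mice (adjusted p = 0.0313), a call that was lost without replicate 1 (-0.39, adjusted p = 0.183) or replicate 2 of the injured GR-deficient mice and without 3 other arrays. Acadvl, for very long chains, fell by 0.33 in control mice (adjusted p = 0.0477), a call at the edge of the threshold that was lost in 10 of the 12 fits that left out 1 array. Acadl, for long chains, was the flattest gene of the pathway, at 11.56, 11.31 and 11.56 in healthy and 11.23, 11.65 and 11.55 in injured control mice, with a difference of 0.00 (95% interval -0.26 to 0.27). Its arrays overlapped in all 4 groups.

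Hadh, the hydroxyacyl-CoA dehydrogenase for shorter chains, read 12.80, 12.65 and 12.83 in healthy and 11.49, 11.65 and 11.91 in injured control mice, and 12.37, 12.47 and 12.69 in healthy and 12.26, 12.31 and 12.45 in injured GR-deficient mice. Only the injured control arrays stood below 12. The fall was -1.08 in control mice (SE 0.13, adjusted p = 1.12e-05), the difference in GR-deficient mice was -0.17 (adjusted p = 0.523), and the interaction was 0.91 (SE 0.18, adjusted p = 0.00399). Acaa2, the ketoacyl-CoA thiolase that closes the round, read 11.13, 10.76 and 11.14 in healthy and 9.88, 9.72 and 10.26 in injured control mice, and 11.03, 11.29 and 11.14 in healthy and 10.99, 11.14 and 11.44 in injured GR-deficient mice. Its injured GR-deficient arrays overlapped those of both healthy groups. Acaa2 fell by 1.06 in control mice (SE 0.16, adjusted p = 1.17e-04), had the third largest genotype difference after AKI (1.24, SE 0.16, adjusted p = 8.57e-05), and had an interaction of 1.09 (SE 0.22, adjusted p = 0.00543).

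Echs1, the enoyl-CoA hydratase for shorter chains, was called lower after AKI in both genotypes. It read 10.89, 10.84 and 10.84 in healthy and 9.82, 9.86 and 10.01 in injured control mice, and 11.20, 10.80 and 10.85 in healthy and 10.31, 10.38 and 10.46 in injured GR-deficient mice. Injured arrays lay below healthy ones in either genotype, and the injured GR-deficient arrays above the injured control arrays. The falls were -0.96 (SE 0.11, adjusted p = 1.49e-05) and -0.57 (SE 0.11, adjusted p = 0.0121), the latter not passing without replicate 1 of the injured GR-deficient mice (adjusted p = 0.0786). The genotype difference after AKI was 0.49 (adjusted p = 0.00790), and the interaction of 0.39 did not pass (adjusted p = 0.147).

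The subunits of the trifunctional protein, which carries out the later steps for long chains, differed in their calls. Hadhb, with the thiolase, read 10.64, 10.62 and 10.70 in healthy and 9.82, 10.08 and 10.33 in injured control mice, and 10.56, 10.73 and 10.70 in healthy and 10.61, 10.70 and 10.67 in injured GR-deficient mice. It fell by 0.58 in control mice (adjusted p = 0.00178) and by 0.59 on its second probe set, and differed by -0.01 in GR-deficient mice (adjusted p = 0.981). Hadha, with the hydratase and dehydrogenase, read 11.35, 11.36 and 11.37 in healthy and 10.91, 11.14 and 11.35 in injured control mice, a difference of -0.22 (95% interval -0.46 to 0.02, adjusted p = 0.177). Both had replicate 1 as the lowest and replicate 3 as the highest injured control array, and whether the subunits differ from each other was not tested. Of the auxiliary enzymes for unsaturated chains, Decr1, a dienoyl-CoA reductase, fell by 0.79 (adjusted p = 0.00135), and Eci1, an enoyl-CoA isomerase, differed by -0.05 (adjusted p = 0.855). After AKI both were higher in GR-deficient mice, Decr1 by 0.65 (adjusted p = 0.0101) and Eci1 by 0.44 (adjusted p = 0.0331), calls that passed in 10 and 9 of the 12 fits that left out 1 array.

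All 3 electron transfer genes fell in control mice. Etfb, the beta subunit of ETF, read 11.46, 11.37 and 11.61 in healthy and 10.31, 10.57 and 10.80 in injured control mice, and 11.76, 11.50 and 11.53 in healthy and 11.24, 11.38 and 11.52 in injured GR-deficient mice. Below 11 stood the injured control arrays alone. The fall was -0.92 (SE 0.13, adjusted p = 8.87e-05), the genotype difference after AKI 0.82 (SE 0.13, adjusted p = 6.14e-04) and the interaction 0.70 (SE 0.19, adjusted p = 0.0258). Etfa, the alpha subunit, read 11.15, 11.00 and 11.13 in healthy and 10.01, 10.35 and 10.48 in injured control mice, and 11.43, 11.31 and 11.10 in healthy and 10.74, 10.85 and 10.73 in injured GR-deficient mice. It was lower after injury in both genotypes, with no overlap, by -0.81 (adjusted p = 1.78e-04) and -0.51 (adjusted p = 0.0374), the latter lost in 9 of the 12 fits that left out 1 array. Etfdh, the oxidoreductase that hands the electrons to ubiquinone, read 11.28, 11.08 and 11.30 in healthy and 10.35, 10.45 and 10.75 in injured control mice, and 10.71, 11.14 and 11.26 in healthy and 10.88, 10.94 and 11.02 in injured GR-deficient mice. It fell by 0.70 in control mice (adjusted p = 0.00156), and the groups of GR-deficient mice overlapped (-0.09, adjusted p = 0.796).

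Of the 4 genes whose enzymes are found in both organelles, 2 fell in control mice. Acad11, an acyl-CoA dehydrogenase, read 10.94, 10.71 and 10.76 in healthy and 9.18, 9.51 and 9.85 in injured control mice, and 10.46, 10.68 and 10.72 in healthy and 10.30, 10.53 and 10.50 in injured GR-deficient mice. All others lay above the injured control arrays. The fall was -1.29 (SE 0.15, adjusted p = 1.12e-05), the genotype difference after AKI 0.93 (SE 0.15, adjusted p = 5.80e-04) and the interaction 1.12 (SE 0.21, adjusted p = 0.00337). Crat, the carnitine acetyltransferase, read 10.59, 10.57 and 10.64 in healthy and 9.99, 10.06 and 10.24 in injured control mice, and 10.10, 10.39 and 10.47 in healthy and 10.33, 10.43 and 10.39 in injured GR-deficient mice. Its arrays did not overlap in control mice and overlapped in GR-deficient mice, with a fall of -0.50 (adjusted p = 0.00295) and an interaction of 0.57 (adjusted p = 0.0311). Eci2, an isomerase, read 10.20, 9.94 and 10.28 in healthy and 9.49, 9.92 and 10.17 in injured control mice. These overlapped, and neither Eci2 (-0.28, adjusted p = 0.214) nor the dienoyl-CoA isomerase Ech1 (-0.24, adjusted p = 0.458) passed.

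Peroxisomal oxidation fell in 9 of 11 genes in control mice, with a median of -0.92 over the 11, and 5 of the falls were at least 2-fold. Pecr, a peroxisomal enoyl-CoA reductase used in chain elongation and counted here with peroxisomal oxidation, had the smallest p of the pathway for this comparison. It read 12.05, 12.06 and 12.003 in healthy and 9.73, 9.99 and 10.18 in injured control mice, and 12.06, 12.21 and 12.27 in healthy and 11.76, 11.95 and 12.05 in injured GR-deficient mice. Injured control arrays lay well below the rest. The fall was -2.07 (SE 0.12, 4.19-fold, adjusted p = 3.67e-08), while the difference in GR-deficient mice was -0.26 (SE 0.12, adjusted p = 0.282). After AKI Pecr was 1.95 higher in GR-deficient mice (SE 0.12, 3.87-fold, adjusted p = 3.25e-07), which ranked 11 by p among all genes, and the interaction was 1.81 (SE 0.17, adjusted p = 4.71e-05).

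Both acyl-CoA oxidases among the genes, which open peroxisomal oxidation and pass electrons to oxygen, fell in control mice. Acox3, which acts on branched chains, read 10.98, 10.82 and 11.05 in healthy and 9.04, 9.10 and 9.53 in injured control mice, and 10.31, 10.54 and 10.89 in healthy and 9.56, 9.83 and 9.70 in injured GR-deficient mice. Injured arrays lay below healthy ones in both genotypes. It fell by 1.73 in control mice (SE 0.16, adjusted p = 1.19e-06) and by 0.88 in GR-deficient mice (SE 0.16, adjusted p = 0.00600). Its interaction was 0.85 (SE 0.22, adjusted p = 0.0233), and its genotype difference after AKI was 0.47 (adjusted p = 0.0544), although the injured arrays of the genotypes did not overlap. Acox2, which acts on branched chains and bile acid precursors, read 10.20, 10.00 and 10.12 in healthy and 9.04, 9.12 and 9.38 in injured control mice, and 9.83, 10.19 and 10.13 in healthy and 10.11, 10.17 and 10.09 in injured GR-deficient mice. Only its injured control arrays were below the others. It fell by 0.92 in control mice (SE 0.12, adjusted p = 3.60e-05), differed by 0.07 in GR-deficient mice (adjusted p = 0.801), and had an interaction of 1.00 (SE 0.17, adjusted p = 0.00178).

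The later steps were uneven. Scp2, which encodes a peroxisomal thiolase and sterol carrier protein, read 11.04, 10.82 and 10.73 in healthy and 9.18, 9.47 and 9.70 in injured control mice, and 10.66, 10.83 and 10.55 in healthy and 10.26, 10.29 and 10.45 in injured GR-deficient mice. The injured GR-deficient arrays lay between the healthy arrays and the injured control arrays, touching neither. The fall was -1.41 in control mice (SE 0.14, adjusted p = 2.10e-06), the difference in GR-deficient mice -0.35 (adjusted p = 0.189) and the interaction 1.07 (SE 0.19, adjusted p = 0.00254). Of the bifunctional proteins that hydrate and dehydrogenate the chain, Hsd17b4 fell by 0.37 in control mice (adjusted p = 0.0388), a call lost without replicate 1 of the injured control mice (-0.25, adjusted p = 0.126) and without 5 other single arrays. Ehhadh, the other one, differed by -0.17 (95% interval -0.49 to 0.15, adjusted p = 0.508).

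Among the auxiliary and exit enzymes, Decr2, the peroxisomal dienoyl-CoA reductase, fell by 1.08 in control mice (SE 0.25, adjusted p = 0.00363), although its injured arrays at 8.53, 8.79 and 9.75 overlapped the healthy ones at 10.17, 9.69 and 10.45. Crot, the carnitine octanoyltransferase that exports shortened chains, fell by 1.01 (SE 0.15, adjusted p = 1.05e-04). Its genotype difference after AKI (0.24, adjusted p = 0.337) and its interaction (0.66, adjusted p = 0.0604) did not pass. Abcd3, which brings branched-chain acyl-CoA into the peroxisome, fell by 0.45 (adjusted p = 0.00948), a call lost without replicate 3 of the healthy control mice (-0.39, adjusted p = 0.0531).

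The alpha oxidation enzymes, which remove a single carbon from phytanic acid and other branched chains, differed in their calls. Phyh, the hydroxylase, fell by 0.76 in control mice (SE 0.11, adjusted p = 6.33e-05). Hacl1, the lyase that follows it, read 9.07, 8.93 and 9.03 in healthy and 8.34, 8.69 and 9.13 in injured control mice, and 9.28, 9.10 and 8.89 in healthy and 9.48, 9.57 and 9.72 in injured GR-deficient mice. Its injured GR-deficient arrays were the highest of all 12, above both healthy groups. Hacl1 did not pass for AKI in control mice (-0.29, adjusted p = 0.245) or in GR-deficient mice (0.50, SE 0.17, adjusted p = 0.106), and after AKI it was 0.87 higher in GR-deficient mice (SE 0.17, adjusted p = 0.00195). The interaction of 0.79 (SE 0.24, adjusted p = 0.0416) passed in 2 of the 12 fits that left out 1 array.

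Ether lipid synthesis fell in all 3 genes in control mice. Agps, the peroxisomal synthase that forms the ether bond, was the gene called between the genotypes in the healthy state. It read 11.06, 10.77 and 10.88 in healthy and 9.09, 9.42 and 9.41 in injured control mice, and 9.48, 10.02 and 10.08 in healthy and 9.24, 9.32 and 9.18 in injured GR-deficient mice. The healthy control arrays lay above all others, and the injured arrays of the genotypes overlapped. AKI lowered Agps by 1.60 in control mice (SE 0.15, 3.03-fold, adjusted p = 1.73e-06) and by 0.61 in GR-deficient mice (SE 0.15, adjusted p = 0.0341), the latter lost in 6 of the 12 fits that left out 1 array, with an adjusted p of up to 0.138. In healthy mice Agps was 1.04 lower on the log2 scale in the GR-deficient group (difference -1.04, SE 0.15, 2.06-fold, adjusted p = 0.0144), where it ranked 9 by p among all genes, and the difference after AKI was -0.06 (95% interval -0.38 to 0.27, adjusted p = 0.846). Its interaction was 0.98 (SE 0.22, adjusted p = 0.00814), with the genotypes apart before injury and overlapping after it. The healthy call was lost without replicate 1 or replicate 3 of the healthy control mice.

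Both remaining ether lipid genes also fell in control mice. Far1, the fatty acyl-CoA reductase that supplies fatty alcohol, read 10.85, 10.59 and 10.67 in healthy and 9.71, 9.89 and 9.84 in injured control mice, and 10.20, 10.59 and 10.57 in healthy and 10.22, 10.38 and 10.12 in injured GR-deficient mice. The injured control arrays were the lowest. It fell by 0.89 in control mice (SE 0.13, adjusted p = 6.83e-05), and its interaction was 0.67 (SE 0.18, adjusted p = 0.0230). Gnpat, the acyltransferase of the first step, read 10.09, 9.95 and 10.21 in healthy and 9.49, 9.47 and 9.81 in injured control mice, and 9.72, 9.77 and 10.07 in healthy and 9.91, 9.91 and 9.86 in injured GR-deficient mice. It fell by 0.49 in control mice (adjusted p = 0.00755), with overlapping groups in GR-deficient mice and an interaction that did not pass (0.53, adjusted p = 0.0688). Its genotype difference after AKI did not pass either (0.30, adjusted p = 0.121).

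**Figure D3:**
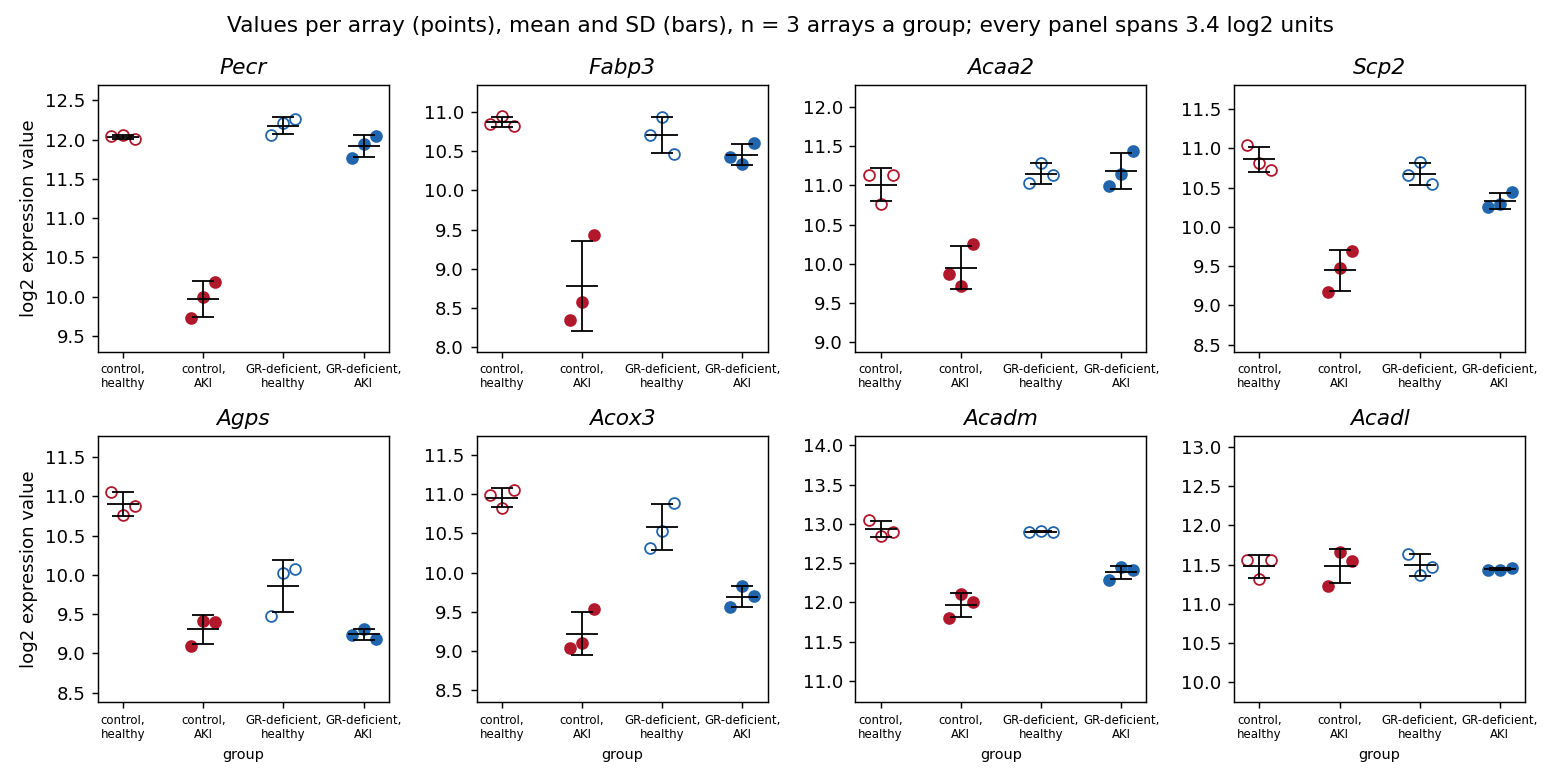
Log2 expression values (vertical axis) of 8 genes on each array (points), with group means and SD (bars, n = 3), in the 4 groups (horizontal axis). Pecr, Fabp3, Acaa2 and Scp2 have injured control arrays below all others, Agps is highest on the healthy control arrays, and Acadl is level in all 4 groups.

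Set side by side, the mitochondrial and the peroxisomal and ether lipid arms had 12 of 18 and 12 of 14 genes that fell in control mice, 3 and 6 of them by at least 2-fold, with medians of -0.74 and -0.90. In GR-deficient mice 4 of 18 and 2 of 14 fell, with medians of -0.08 and -0.18. In healthy mice the genotype difference had a median of 0.02 in the mitochondrial arm and -0.18 in the peroxisomal and ether lipid arm, where 12 of 14 genes were below 0 and 1, Agps, passed. After AKI 10 of 18 and 7 of 14 genes were higher in GR-deficient mice, with medians of 0.43 and 0.39. The interaction passed for 5 of 18 and 9 of 14 genes, with medians of 0.36 and 0.73. No test was made of the difference between the arms, since the genes were chosen with results known.

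The arms were also summarised on each array, as the median over its genes of the value minus the healthy control mean. In injured control mice the mitochondrial arm stood at -0.86, -0.76 and -0.42 and the peroxisomal and ether lipid arm at -1.03, -0.92 and -0.65. In injured GR-deficient mice these medians were -0.27, -0.13 and 0.00, and -0.34, -0.25 and -0.29. In healthy GR-deficient mice they were -0.01, -0.04 and 0.03, and -0.27, -0.15 and -0.06. The peroxisomal and ether lipid median was the lower on each of these 9 arrays, by 0.08 to 0.28. This gap was 0.26, 0.11 and 0.09 in healthy and 0.08, 0.12 and 0.28 in injured GR-deficient mice. On the healthy control arrays, which set the reference, it was -0.01, 0.05 and 0.02. The pooled SD of the medians within groups was 0.14 for the mitochondrial and 0.12 for the other arm, each taken alone, which is not the spread of the gap between them. Counting the 4 genes of both organelles with the mitochondrial arm gave medians of -0.64 for AKI in control mice and 0.36 for the interaction, and counting them with the peroxisomal and ether lipid arm gave -0.82 and 0.66.

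**Figure D4:**
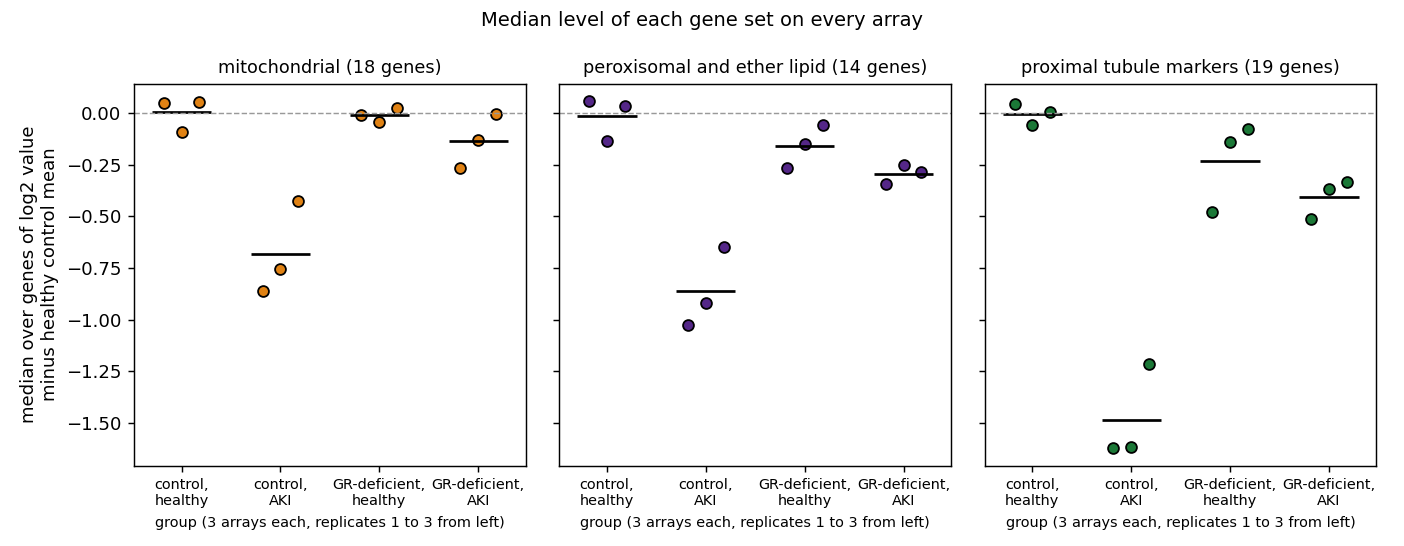
Median over the genes of the log2 value minus the healthy control mean (vertical axis) for the 18 mitochondrial genes, the 14 peroxisomal and ether lipid genes and 19 proximal tubule markers on each array (points, replicates 1 to 3 from left; bar, group mean) in the 4 groups (horizontal axis). The injured control arrays are the lowest in each panel, from -1.62 to -1.21 for the markers, against -0.51 to -0.33 on the injured GR-deficient arrays.

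The genotype differences of single genes before and after AKI, which share no arrays, are set against each other in the plot of both differences. Pecr, Fabp3 and Acaa2 differed by 0.14, -0.16 and 0.14 in healthy mice and by 1.95, 1.67 and 1.24 after AKI. Agps was the reverse, with -1.04 and -0.06. Cpt1a was the only gene with a negative value past 0.1 on both sides, -0.40 and -0.15, neither of which passed.

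**Figure D5:**
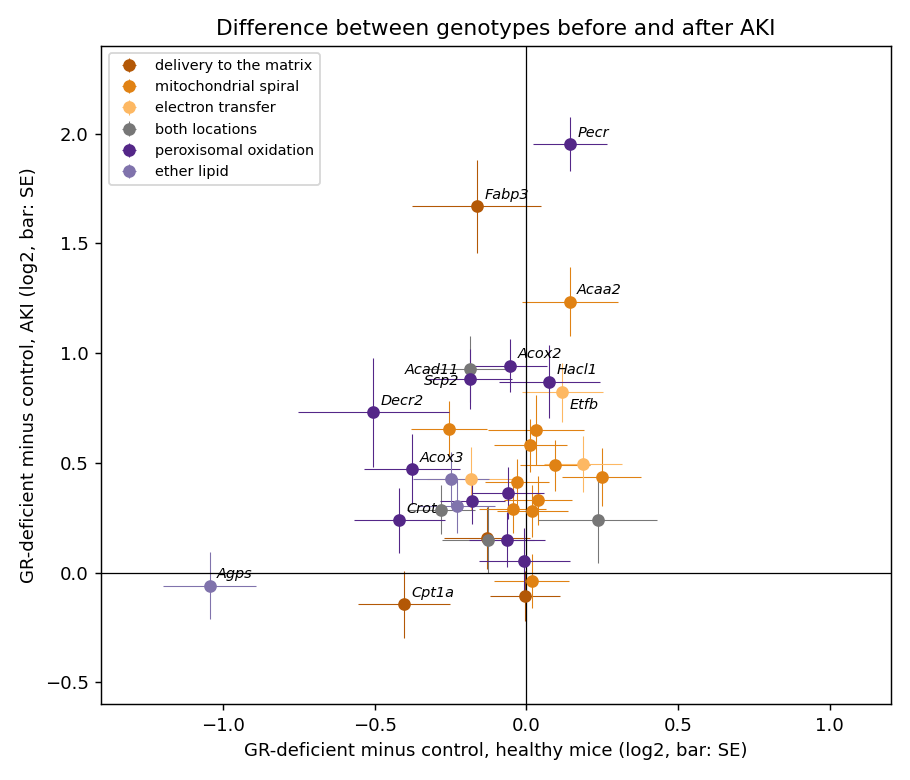
GR-deficient minus control in healthy mice (horizontal axis) against the same difference after AKI (vertical axis) for the 36 genes, on the log2 scale with SE bars and coloured by class. Most genes lie near 0 on the horizontal axis and above 0 on the vertical one, Pecr is highest at 1.95, and Agps lies apart at -1.04 and -0.06.

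The regulators of the pathway were a list of 13 genes, of which 7 fell and 1 rose in control mice with AKI, 0 passed in GR-deficient mice (limma; 1 lower and 2 higher at an unadjusted p under 0.05), and 6 were higher in GR-deficient mice after AKI. Beside this and the lists that follow, 15.1% of all genes fell and 13.6% rose with AKI in control mice. These shares were 1.35% and 3.29% in GR-deficient mice. For genotype after AKI 10.0% of all genes were higher and 7.34% lower, and the interaction was positive for 7.39% and negative for 4.06%. Ppargc1a, the coactivator of mitochondrial gene programmes, read 10.46, 10.45 and 10.48 in healthy and 8.79, 8.93 and 9.18 in injured control mice, and 9.54, 10.36 and 10.40 in healthy and 9.79, 10.01 and 10.03 in injured GR-deficient mice. The injured control arrays were the lowest, and the one low healthy GR-deficient array was replicate 1. It fell by 1.50 in control mice (SE 0.19, adjusted p = 1.98e-05), and its interaction was 1.34 (SE 0.26, adjusted p = 0.00408). Ppara fell by 0.72 in control mice (SE 0.18, adjusted p = 0.00557), and its interaction did not pass (0.62, adjusted p = 0.136). Esrra, a nuclear receptor of mitochondrial genes, fell by 0.64 (adjusted p = 0.00212), and Hnf4a, a nuclear receptor of proximal tubule and liver genes, by 1.52 (adjusted p = 5.63e-06).

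As a group, other known targets of PPARA did not follow the oxidation genes, although single genes did. Of 14 measured, 8 rose and 1 fell in control mice, 4 rose and 0 fell in GR-deficient mice, and after AKI 3 were higher and 4 lower in GR-deficient mice. The interaction was positive for 2 of them and negative for 3. Pdk4, the kinase that shuts pyruvate out of the mitochondria, read 7.55, 7.60 and 8.18 in healthy and 11.06, 11.68 and 11.33 in injured control mice, and 7.74, 8.14 and 7.73 in healthy and 10.15, 9.46 and 9.07 in injured GR-deficient mice. Injured arrays were above healthy ones in either genotype, and highest in control mice. It rose by 3.58 (SE 0.25, adjusted p = 1.02e-07) and by 1.69 (SE 0.25, adjusted p = 0.00166), with an interaction of -1.89 (SE 0.35, adjusted p = 0.00279). Plin2, a coat protein of lipid droplets, rose by 3.21 in control mice (SE 0.31, adjusted p = 1.80e-06) and did not pass in GR-deficient mice (0.59, adjusted p = 0.335).

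Neighbouring lists, drawn up with earlier results known, moved as follows. Among 25 other mitochondrial genes of acyl-CoA use, 23 fell and 1 rose in control mice, 8 fell and 0 rose in GR-deficient mice, and 19 were higher and 0 lower in GR-deficient mice after AKI. Acsm5, a medium-chain acyl-CoA synthetase, fell by 2.54 in control mice (SE 0.13, adjusted p = 1.58e-08) and by 0.71 in GR-deficient mice (SE 0.13, adjusted p = 0.00666). Ivd, an acyl-CoA dehydrogenase of leucine breakdown, fell by 1.57 and 0.87. Among 33 other peroxisomal genes, 24 fell and 1 rose in control mice, 1 fell and 1 rose in GR-deficient mice, and 23 were higher and 1 lower after AKI in GR-deficient mice. Amacr, the racemase that prepares branched chains for oxidation, fell by 2.69 in control mice (SE 0.16, adjusted p = 3.53e-08), with an interaction of 2.25 (SE 0.22, adjusted p = 5.68e-05). Among 17 genes of peroxisome assembly, import and division, that is, Pex genes with the fission genes Fis1, Mff and Dnm1l, 5 fell and 0 rose in control mice, with a median of -0.18 over the 17, and 0 passed in GR-deficient mice (limma; 3 higher and 0 lower at an unadjusted p under 0.05). Pex7, the import receptor of Agps and Phyh among others, fell by 0.91 (adjusted p = 1.77e-04), and Pex19 by 0.62 (adjusted p = 5.20e-04).

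Genes of fatty acid uptake and storage were mixed: of 18, 5 fell and 3 rose in control mice, against 15.1% and 13.6% of all genes. The count of 3 is near the latter share. In GR-deficient mice 2 of the 18 rose, against 3.29% of all genes. Acsl4, an acyl-CoA synthetase for polyunsaturated chains, rose by 1.51 in control mice (SE 0.11, adjusted p = 2.12e-07) and by 0.60 in GR-deficient mice (SE 0.11, adjusted p = 0.00777), and Vldlr, a lipoprotein receptor, fell by 0.97 in control mice (adjusted p = 3.88e-06). Of 16 genes of fatty acid synthesis, 8 fell and 0 rose in control mice, and 2 rose and 0 fell in GR-deficient mice. The desaturases Fads2 and Scd1 fell by 2.07 (SE 0.17, adjusted p = 3.93e-07) and 1.35 (SE 0.22, adjusted p = 2.43e-04) in control mice. In healthy mice 0 genes of these 7 lists passed between the genotypes (limma). At an unadjusted p under 0.05 in limma, 1 to 9 were lower and 0 to 2 higher in each list, against 1319 lower and 805 higher among all 19938 genes.

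Markers of the proximal tubule moved with the pathway. All 19 measured proximal tubule markers fell in control mice with AKI, with a median of -1.52, and 2 fell in GR-deficient mice, with a median of -0.25, while 16 were higher and 1 lower in GR-deficient mice after AKI. Their mean level per array was 10.67 to 11.10 in injured control mice, 11.89 to 12.37 in healthy and 11.81 to 11.96 in injured GR-deficient mice. Of 12 distal nephron markers 9 fell in control mice and 4 in GR-deficient mice. Of 9 markers of injured tubule, 8 rose in control mice (mean level 10.14 to 10.22 per array, against 6.98 to 7.06 in healthy control mice) and 5 in GR-deficient mice (8.09 to 8.83, against 6.93 to 7.58 in healthy GR-deficient mice). After AKI 8 of these 9 were lower and 1 higher in GR-deficient mice than in control mice, with a median difference of -1.46. Replicate 1 of the healthy GR-deficient mice, an array that stood apart, read 7.58 for these markers, against 7.02 and 6.93 on replicates 2 and 3. Its proximal tubule level, 11.89, was the lowest of the healthy arrays. This array enters each contrast that uses healthy GR-deficient mice. Leukocyte markers rose in 5 of 11 genes in control mice (6.93 to 7.18, against 6.26 to 6.36) and in 1 in GR-deficient mice, and endothelial and stromal markers rose in 6 and fell in 2 of 10 genes in control mice, and rose in 2 in GR-deficient mice. Of 8 fat cell markers, 1 rose in control mice, Cidec (0.95), and 1 fell, Pck1 (-1.25), which is also a proximal tubule gene, both named after their values were seen. These counts are near the shares of all genes, 13.6% higher and 15.1% lower. Muscle and heart markers, which share Fabp3 as a typical gene, passed in 0 of 10 in either genotype (limma; at an unadjusted p under 0.05, 1 higher in control mice and 0 in GR-deficient mice). The part of these shifts in the differences of the oxidation genes was not tested.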

How the data were processed

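RNA of renal cortex was amplified and hybridised to Affymetrix mouse gene arrays, 3 arrays in each of 4 groups taken from the sample labels. The authors deposited 1 log2 expression value per probe set and array. The submitters' processing notes name RMA (robust multichip averaging), affy and oligo, and the sources used here give no versions. The log base is not stated, and the largest value per array, 14.73 to 14.90, lies in the range of a log2 scale. RMA is meant to bring the arrays to a common distribution, although the SD over genes still ran from 1.88 to 2.06 per array. The values are therefore relative levels, and a change shared by all genes would not be seen.

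Of 35556 probe sets, 21789 had exactly 1 gene symbol, 1621 had several and 12146 had none. The probe set with the highest mean over 12 arrays was kept for each of 19938 genes, with no filter. Of the 37 genes of the pathway, 36 were measured and matched a RefSeq entry by Entrez ID. The model was fitted with limma 3.58.1 under R 4.3.3 on 4 group means (8 residual and 6.26 prior degrees of freedom), as 5 contrasts, two-sided, with Benjamini-Hochberg adjustment over all genes. The members, the lists of related genes and the cell type markers were chosen with earlier results of these data known, so no p is given for a list. All genes of the pathway could be named, and of each related list up to 4 genes with the smallest p for AKI in control mice, with Ppara, Ppargc1a, Esrra and Hnf4a. Fewer than 4 were taken from each list by smallest p. Per-array values are given for the 3 genes of each class with the smallest p for AKI in control mice, for Cpt1a, and for the 12 with the smallest p among genes called between genotypes or for the interaction. Acadl, Hadha and Decr2 were added after their values were seen.

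Simulated data for 19938 genes had independent normal noise and a change in only a small share of the genes. Changes of 1 on the log2 scale were recovered in 100% (AKI in control mice), 98% (AKI in GR-deficient mice), 92% (genotype in healthy mice), 98% (genotype after AKI) and 76% (interaction). Changes of 0.5 were recovered in 46%, 32%, 38%, 58% and 6%. In the data the share of genes that passed ran from 0.145% (genotype in healthy mice) to 28.7% (AKI in control mice). The adjusted threshold depends on that share, so these rates need not hold for each contrast. Promoter windows came from a RefSeq table of GRCm38.p6. A planned check of peroxisomal targeting signals in protein sequences was not run. Alternatives were other normalizations, array weights, another prior, a filter on dim genes, the mean of a gene's probe sets, leaving out each array, and the replicate number as a block.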

Additional observations from a re-analysis of the deposited data

Results flagged for a closer look

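The AKI response differed between the genotypes, by the interaction test in limma, for 16 genes of the pathway. On the log2 scale the interaction was 1.83 for Fabp3, 0.91 for Hadh, 0.57 for Hadhb, 1.09 for Acaa2 and 0.70 for Etfb in the mitochondrial arm, and 1.12 for Acad11 and 0.57 for Crat among genes of both organelles. In the peroxisomal and ether lipid arm it was 1.81 for Pecr, 1.00 for Acox2, 0.85 for Acox3, 1.07 for Scp2, 0.50 for Phyh, 0.79 for Hacl1, 1.23 for Decr2, 0.98 for Agps and 0.67 for Far1. Of the 16, 8 passed in all 20 alternatives. Hadhb passed in 1, Phyh and Hacl1 in 2, Decr2 in 3, Crat in 4, Etfb in 5, Acox3 in 6 and Far1 in 10 of the 12 fits that left out 1 array.

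The same test passed for named genes outside the pathway. It was 1.44 for Hnf4a, 1.64 for Lpin1, 1.34 for Ppargc1a and 0.50 for Nr3c1. It was 1.83 for Acsm5, 0.71 for Ivd, 2.25 for Amacr, 0.89 for Mpv17l, 0.81 for Pex7, 0.55 for Pex19, 0.99 for Vldlr and 1.74 for Fads2. It was negative for genes that rose with AKI, at -1.89 for Pdk4, -2.63 for Plin2 and -0.91 for Acsl4.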

How the results depend on the processing

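No result changed its called direction in any alternative. Of the genes called, 23 of 26 for AKI in control mice, 1 of 6 for AKI in GR-deficient mice, 0 of 1 for genotype in healthy mice, 11 of 18 for genotype after AKI and 8 of 16 for the interaction passed in all 20 alternatives. In control mice with AKI, 1 gene rose instead of 0 with quantile normalization, with array weights and without both arrays that stood apart. In GR-deficient mice with AKI, 1 gene rose instead of 0 with quantile normalization, with the trended and robust prior, without dim genes, with the replicate block and without both arrays that stood apart, and 2 with array weights. Leaving out both arrays, a setting added after the data were seen, lowered the interaction median of the peroxisomal and ether lipid arm from 0.73 to 0.56; the cause was not tested.

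When 1 array at a time was left out, AKI in control mice had 23 to 29 lower and 0 to 1 higher genes of the pathway, and AKI in GR-deficient mice 1 to 6 and 0 to 2. Genotype in healthy mice had 0 to 1 lower, genotype after AKI 13 to 24 higher, and the interaction 8 to 20 positive, with 0 in the other direction in each. The medians of the mitochondrial arm ranged from -0.82 to -0.64, -0.13 to -0.06, -0.05 to 0.04, 0.35 to 0.52 and 0.33 to 0.43 in the order of these 5 contrasts, and those of the peroxisomal and ether lipid arm from -0.96 to -0.84, -0.24 to -0.15, -0.21 to -0.13, 0.33 to 0.44 and 0.61 to 0.90.

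Replicate numbers did not pair the samples: of 18 pairs with the same number, 3 had a correlation of deviations over 0.1 (range -0.41 to 0.25). With the replicate block, 25 genes of the pathway fell with AKI in control mice and 4 in GR-deficient mice, 1 was lower in healthy mice, 19 were higher after AKI and 16 had a positive interaction.

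Counts over all genes moved as well. AKI in GR-deficient mice raised 656 and lowered 270 genes, against 212 and 65 without replicate 1 of that injured group and 1793 and 1403 with array weights. Genotype in healthy mice gave 7 higher and 22 lower genes, against 2 to 27 and 7 to 88 with single arrays left out and 87 and 214 with array weights. With array weights AKI in control mice gave 4277 higher and 5371 lower genes (2708 and 3007 without), genotype after AKI 3761 and 3239 (1997 and 1463), and the interaction 2768 and 2137 (1473 and 810, with 522 negative without replicate 1 of the healthy control mice). The few arrays limit small changes. With only a small share of genes changed, the simulation recovered 6% (interaction) to 58% (genotype after AKI) of changes of 0.5, rates that need not hold for these contrasts.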
